A study of Mus musculus with 153 samples.

Results

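The potassium channel genes of the mouse dorsal hippocampus were followed across 3 neuron classes and 3 behavioural conditions. Members were the gene symbols made of Kcn, a family letter and a number, with the gene's mean at or above 1 CPM, a gene's count scaled to the total of its library, in the home cage samples of any fraction. Of 25103 genes listed in all, 94 symbols matched and 80 passed this level. Of these, 78 encode channel subunits or their partners and 2, Kcnmb4os2 and Kcnq1ot1, are noncoding RNAs. The 14 that stayed below 1 CPM were Kcna10, Kcna7, Kcne1, Kcng3, Kcnj1, Kcnj15, Kcnk15, Kcnk16, Kcnk18, Kcnk7, Kcnk9, Kcnmb3, Kcnmb4os1 and Kcnv2, and they are not described further. Just inside the level were Kcnj5 and Kcnk5, with highest home cage means of 1.02 and 1.15 CPM, and just outside it Kcnk9 and Kcnk7, with 0.847 and 0.608 CPM. Since a gene entered through the group where it was highest, being detected in some group was required of every member and is not a result.

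All mice carried a floxed TRAP allele together with a Cre transgene, in the genotypes Camk2a.Cre/TRAPfl, Pvalb.Cre/TRAPfl and Sst.Cre/TRAPfl. TRAP, translating ribosome affinity purification, pulls tagged ribosomes and the mRNA on them out of tissue, and the tag is present only where the Cre driver was active: Camk2a in excitatory neurons, Pvalb and Sst in classes of inhibitory interneurons. From each line the purified RNA and the total lysate were sequenced as polyA RNA. Home cage mice served as controls, box mice were put into a new context and received no shock, and shock mice were conditioned there with one. Samples came in a set labelled 15 min and a set labelled 60 min, each with its own home cage mice, and ages are not given in the sources used here. The 151 libraries used made 36 groups of 3 to 6, described by the submitters as biological replicates. The labels name no animals, so a p-value here reflects only how much the libraries of a group vary.

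Potassium channels carry the outward current that repolarises a neuron, sets its resting potential and limits how fast it can fire. Voltage-gated alpha subunits (Kv) form the pore in groups, and several members, the Kcnf, Kcng, Kcns and Kcnv genes, do not open on their own but alter the Kv2 channels they join. Kcnip and Kcnab genes encode cytoplasmic partners of Kv4 and Kv1 channels, Kcnma1 and the Kcnmb genes encode calcium-activated BK channels, Kcnn genes encode SK channels, and Kcnj and Kcnk genes encode inward rectifiers and leak channels. Fast-spiking Pvalb interneurons are known for strong Kv1 and Kv3 expression, and pyramidal neurons for Kv2, Kv4 and Kv7 currents.

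On GRCm38, in GENCODE M21, the genes that come up most below lie at chr8:119623854-119635680 (Kcng4), chr12:11090202-11151056 (Kcns3), chr3:31902507-32200180 (Kcnmb2), chr11:33963013-33973641 (Kcnmb1), chr11:33629339-33993152 (Kcnip1), chr5:48389502-49524907 (Kcnip4) and chr2:107290639-107298502 (Kcna4). Kcnmb1, on the plus strand, lies within the span of Kcnip1, on the minus strand, and the 2 share no exon bases. The counts do not separate strands, and among members named below the share of exon bases lying in exons of another gene was 31.1% for Kcnj3, 13.1% for Kcnk4, 12.2% for Kcnk2, 9.1% for Kcng2, 8.13% for Kcnn2, 8.01% for Kcnk1, 7.36% for Kcnip4, 5.98% for Kcnma1, 5.76% for Kcnk3 and 5.13% for Kcnab3.

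An upstream sequence was at hand for some of the members that differed between lines. RefSeq entries on GRCm38.p6 were matched by symbol for 58 of the 80 members. For 3 members that were higher in Pvalb than in Camk2a neurons and 1 that was lower, the 250 bases before a RefSeq start are shown 5′ to 3′ on the gene's strand, so that the results can be set beside them. Capitals mark a match, on either strand, to the GC box GGGCGG or to the E-box forms CAGCTG and CAGGTG.
Kcng4, chr8:119635681-119635930, minus strand: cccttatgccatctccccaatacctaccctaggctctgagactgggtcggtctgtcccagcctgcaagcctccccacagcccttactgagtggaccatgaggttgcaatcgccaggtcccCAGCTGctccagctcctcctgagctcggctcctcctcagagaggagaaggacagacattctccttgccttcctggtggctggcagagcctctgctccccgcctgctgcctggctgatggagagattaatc
Kcns3, second of 2 starts, chr12:11150374-11150623, minus strand: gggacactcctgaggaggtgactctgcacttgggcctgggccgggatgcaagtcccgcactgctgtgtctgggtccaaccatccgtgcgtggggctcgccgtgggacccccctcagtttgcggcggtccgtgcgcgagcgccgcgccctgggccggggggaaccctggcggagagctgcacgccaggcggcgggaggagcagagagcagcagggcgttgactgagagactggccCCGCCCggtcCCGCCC
Kcnmb1, chr11:33962763-33963012, plus strand: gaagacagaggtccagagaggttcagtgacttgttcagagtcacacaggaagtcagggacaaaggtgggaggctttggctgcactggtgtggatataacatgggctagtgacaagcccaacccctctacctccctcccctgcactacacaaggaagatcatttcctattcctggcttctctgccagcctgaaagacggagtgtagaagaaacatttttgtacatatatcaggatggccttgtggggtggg
Kcnip4, first of 2 starts, chr5:49285660-49285909, minus strand: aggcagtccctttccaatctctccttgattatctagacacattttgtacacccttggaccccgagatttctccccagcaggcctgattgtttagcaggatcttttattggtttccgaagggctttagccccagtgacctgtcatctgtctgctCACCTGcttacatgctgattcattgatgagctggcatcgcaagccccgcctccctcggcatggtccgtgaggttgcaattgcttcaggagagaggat
The Kcng4 window holds 1 CAGCTG, the Kcns3 window 2 GGGCGG, the Kcnip4 window 1 CAGGTG and the Kcnmb1 window none of them. Over all 32851 RefSeq windows of this length, GGGCGG stood in 32.7%, CAGCTG in 13% and CAGGTG in 17.2%. Of the 80 windows of members, 38 held GGGCGG, 17 held CAGCTG and 20 held CAGGTG. Also searched on both strands were the CRE TGACGTCA, in 0 of the 80 and in 1.55% of all windows, the MEF2 motif, in 2 and 3.2%, and TATAAA, in 3 and 12.4%. A match describes the letters and is not a binding site.

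Total counts per library ran from 16392725 to 292132306 in lysates and from 9043042 to 397228206 in purified samples. Some facts of the series touch what follows. The purified Sst libraries were uneven: for 10 of them, 4 at 15 min and 6 at 60 min, the score of the Sst and GABA neuron markers against the markers of other cells lay less than 1 log2 unit above that of the lysates, and these included all 4 shock libraries at 60 min. This own-class score was computed for the other lines from their own markers. In the home cage the pyramidal markers averaged 7.97 and 8.67 log2 CPM in purified Camk2a against 7.27 and 7.82 in its lysates, the Pvalb markers 7.78 and 7.997 against 4.39 and 4.30, and the Sst markers 7.30 and 6.87 against 5.19 and 4.62, at 15 and 60 min. The table of the Camk2a set at 15 min also listed some members far lower than the other tables did in lysate, which is the same tissue in all lines. Mean home cage lysate levels of Kcnj3 were 17.0 CPM there and 165 to 309 CPM in the other 5 tables, and those of Kcnd1 (Kv4.1) were 1.49 against 4.43 to 9.48 CPM. Of 79 members 4 differed more than 3-fold in this way, with a median ratio over members of 1.15. Line and table cannot be told apart in a comparison of purified libraries alone, so each such result was also computed relative to the lysate of its own table.

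Per length, the most abundant members in the home cage differed between lines. In purified Pvalb libraries Kcna1, the Kv1.1 subunit that holds back firing at the axon, ranked first in both sets with means of 101 and 144 CPM per kilobase of exon. In Camk2a libraries Kcna1 stood at 61.8 CPM per kilobase in the 15 min set, behind Kcnip4 at 83.8, and Kcnab2, the Kv-beta2 subunit, led the 60 min set at 122. Kcnk1, the leak channel TWIK-1, was among the first 3 in every line and set, from 48.9 CPM per kilobase in Camk2a at 15 min to 102 in Pvalb at 60 min. Kcnj13, a rectifier known from choroid plexus, reached 77.6 CPM per kilobase in Pvalb and 59.4 in Sst at 60 min, but 49.1% of its exon bases also lie in exons of Gigyf2, and the counts do not separate strands. In the same Pvalb libraries the mean log2 CPM of the choroid plexus markers ran from 2.85 to 7.98, and its part in Kcnj13 was not tested.

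In sums over subfamilies Kv1 was also highest in Pvalb. The 6 Kcna genes together gave 1073 and 1329 CPM in purified Pvalb libraries at 15 and 60 min, 724 and 358 CPM in Camk2a, and 773 and 450 CPM in Sst. Home cage lysates of the same tables gave 443 and 426 CPM for Pvalb, 717 and 476 CPM for Camk2a, and 416 and 417 CPM for Sst. The purified Camk2a sum at 15 min was thus close to that of its own lysate, which was itself higher than in the other tables. These sums are CPM over genes of different length and are compared between lines only.

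Which line holds each channel was asked with edgeR across the purified home cage libraries of a set, and a member was taken as held when it passed an adjusted p of 0.05 in the same direction in both sets. Pvalb exceeded Camk2a in 9 members in both sets, where 5.93% of all genes did, and lay below it in 8 (all genes 4.86%). At 15 min 14 members were higher and 11 lower of 77 tested, beside 18.7% of all genes, 10.2% higher and 8.47% lower. At 60 min 18 were higher and 27 lower of 80, beside 55.1% of all genes, 28.6% higher and 26.5% lower, so the members' share there was close to that of all genes. Sst exceeded Camk2a in 5 members in both sets (all genes 4.36%) and lay below it in 9 (all genes 2.6%). At 15 min that comparison called 10 higher and 12 lower of 77, beside 11.8% of all genes, 7.3% higher and 4.52% lower. At 60 min it called 16 and 24 of 80, beside 26% of all genes, 15% higher and 11% lower. Between Sst and Pvalb edgeR called 0 of 77 at 15 min (all genes 0%), with 12 at an unadjusted p under 0.05 and 3 by DESeq2, and 19 higher and 14 lower of 80 at 60 min, beside 46.1% of all genes, 26.2% higher and 19.9% lower. Purified Sst home cage libraries 1 and 3 of the 60 min set had a low marker score. They are included in these Sst comparisons and in the Sst values below.

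The 9 members higher in Pvalb were Kcng4, Kcns3, Kcnip1, Kcnmb1, Kcnmb2, Kcnk3, Kcnh2, Kcne4 and Kcnj10. All but Kcnh2 were also higher relative to the lysates of the same tables in both sets, and all 9 were called with offsets for GC content and gene length. Among the 8 lower ones were Kcnip3, Kcnip4, Kcnf1, Kcnh1, Kcnq5, Kcns2 and Kcnv1. Of the 8, 2 were also called relative to lysate, Kcnip3 among them, and 7 with the offsets. In bulk RNA, fewer cells of a type and less RNA per cell cannot be told apart.

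**Figure D1:**
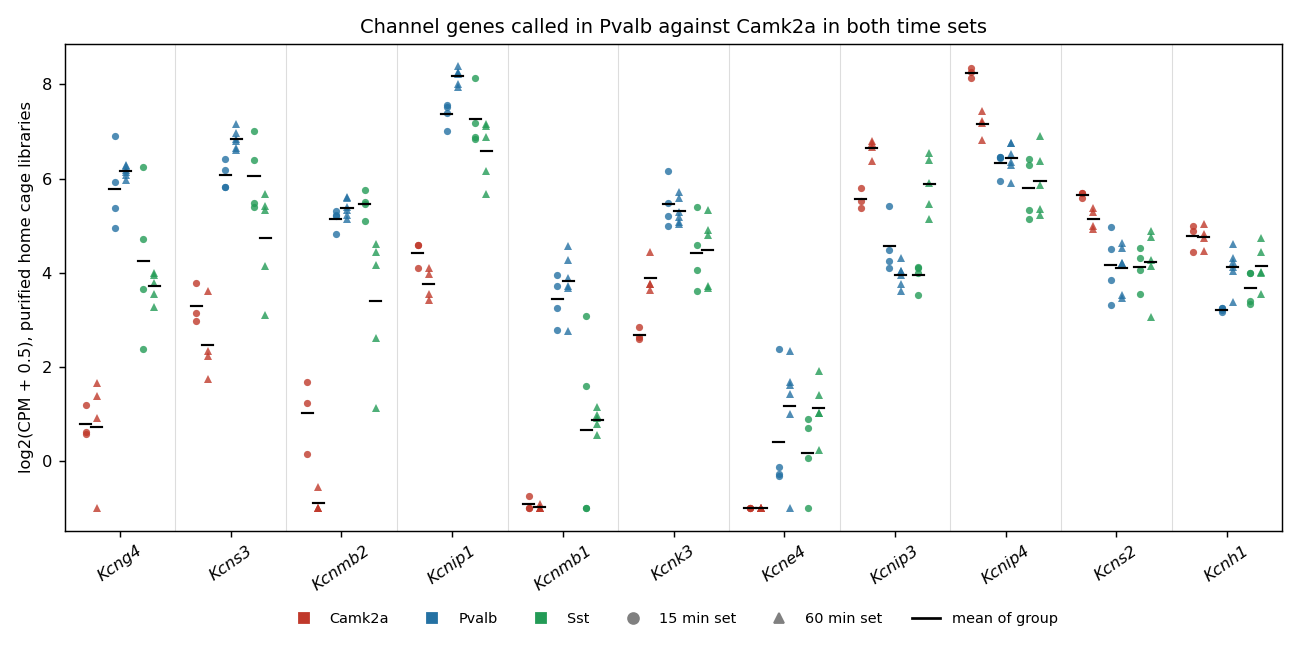
Level of 11 channel genes called in Pvalb against Camk2a in both sets, as log2(CPM + 0.5), in each purified home cage library; colour gives the line, circles the 15 min set, triangles the 60 min set, and bars the group means. For Kcng4, Kcns3, Kcnip1, Kcnmb1 and Kcnmb2 every Pvalb point lies above every Camk2a point, and for Kcnip4 and Kcns2 every Pvalb point of a set lies below the Camk2a points of that set.

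Among subunits that modify Kv2 channels, Kcng4 (Kv6.4) was near absent from Camk2a neurons. Purified Camk2a libraries held 0.993, 1.05 and 1.79 CPM at 15 min, Pvalb 30.3, 41.3, 60.1 and 120 CPM, and Sst 4.75, 12.2, 25.97 and 74.9 CPM. Neither interneuron line overlapped Camk2a, while the Pvalb and Sst ranges overlapped each other. The log2 fold change over Camk2a was 5.44 ± 0.87 (SE, edgeR adjusted p = 0.000872) for Pvalb and 4.48 ± 0.83 (adjusted p = 0.00326) for Sst. At 60 min Camk2a held 0, 1.38, 2.12 and 2.65 CPM, Sst 9.25 to 15.5 CPM, and the 6 Pvalb libraries a lowest value of 62.1, a median of 70.9 and a highest of 78.2 CPM. The 3 ranges did not touch there, in the order Pvalb, Sst, Camk2a, and Sst lay below Pvalb by 2.501 ± 0.535 on the log2 scale (adjusted p = 0.00109). Relative to lysate, Kcng4 stayed called in both sets for Pvalb (3.83 and 5.21) and not for Sst (2.54 and 2.79).

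Kcns3 (Kv9.3), the other modifying subunit of this group, showed 7.35, 8.32 and 13.3 CPM in Camk2a at 15 min, 56.1, 56.4, 72.4 and 85.4 CPM in Pvalb, and 41.4, 44.2, 83.5 and 128 CPM in Sst. Both interneuron lines lay wholly above Camk2a and overlapped each other, with log2 fold changes of 2.63 ± 0.40 and 2.90 ± 0.41. At 60 min Camk2a held 2.84, 4.20, 4.53 and 11.7 CPM, Pvalb 96.3 to 142 CPM with a median of 113, and Sst 8.15, 17.3, 39.8, 42.4 and 50.5 CPM. The Sst library at 8.15 CPM lay inside the Camk2a range, and the Sst libraries at 8.15 and 17.3 CPM are the 2 home cage ones with a low Sst marker score.

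Kcnip1 (KChIP1), a calcium-binding partner of Kv4 channels, had 16.7, 23.5 and 23.6 CPM in Camk2a at 15 min, 129, 168, 184 and 188 CPM in Pvalb, and 115, 118, 145 and 279 CPM in Sst. At 60 min the values were 10.2, 11.2, 15.2 and 16.6 CPM in Camk2a, 247 to 334 CPM with a median of 298 in Pvalb, and 50.4, 70.8, 118, 138 and 142 CPM in Sst. Camk2a lay lowest without overlap in both sets, and at 60 min Pvalb lay wholly above Sst. Log2 fold changes of Pvalb over Camk2a were 2.80 ± 0.34 (adjusted p = 0.00011) and 4.30 ± 0.28 (adjusted p = 2.89e-09), and the same Kv4 partner was higher relative to lysate in both interneuron lines.

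Kcnip4 and Kcnip3 ran the opposite way. Kcnip4 (KChIP4) had 280, 307 and 325 CPM in Camk2a, 61.0, 86.2, 87.4 and 87.5 CPM in Pvalb, and 35.01, 39.7, 78.1 and 84.9 CPM in Sst at 15 min, so that Camk2a stood apart above both. At 60 min Camk2a held 113, 144, 149 and 171 CPM, Pvalb 59.9 to 107 CPM with a median of 86.5, and Sst 36.9, 40.7, 58.1, 82.8 and 119 CPM, with 1 Sst library inside the Camk2a range. Pvalb lay below Camk2a by 2.08 ± 0.32 and 0.87 ± 0.26 on the log2 scale (adjusted p = 0.000688 and 0.00911), and Sst by 2.37 ± 0.33 and 1.30 ± 0.27 (adjusted p = 0.000354 and 0.00212). Relative to lysate the Pvalb difference of Kcnip4 was -1.37 and -0.43 and was not called in both sets, whereas that of Sst, -1.50 and -2.31, was.

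Kcnip3 (KChIP3, also known as DREAM) had 41.0, 45.2 and 54.9 CPM in Camk2a, 16.7, 18.7, 21.9 and 42.6 CPM in Pvalb, and 11.1, 15.5, 16.8 and 17.0 CPM in Sst at 15 min. One Pvalb library lay inside the Camk2a range, the others and all Sst libraries below it. At 60 min Camk2a held 82.8, 101, 107 and 111 CPM and Pvalb 11.7 to 19.5 CPM with a median of 15.4, a log2 difference of -2.89 ± 0.24 (adjusted p = 2.74e-08). Sst held 34.6, 43.8, 59.5, 84.2 and 92.7 CPM there, overlapping Camk2a and lying wholly above Pvalb.

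Auxiliary beta subunits of BK channels also differed between the lines. Kcnmb2, whose product inactivates BK channels, had 0.618, 1.88 and 2.71 CPM in Camk2a, 27.7, 36.6, 37.0 and 39.5 CPM in Pvalb, and 33.8, 43.3, 45.2 and 53.9 CPM in Sst at 15 min. At 60 min Camk2a held 0, 0, 0 and 0.182 CPM, Pvalb 35.1 to 48.3 CPM with a median of 40.8, and Sst 1.70, 5.60, 17.4, 21.3 and 24.1 CPM. Camk2a was lowest without overlap in both sets, and Sst lay wholly below Pvalb at 60 min. Kcnmb1, a beta subunit best known from smooth muscle, had 0, 0 and 0.103 CPM in Camk2a, 6.45, 9.10, 12.7 and 15.1 CPM in Pvalb, and 0, 0, 2.54 and 8.04 CPM in Sst at 15 min. At 60 min it was counted in 1 of 4 Camk2a libraries, at 0.0364 CPM, in all 5 Sst libraries between 0.977 and 1.74 CPM, and in all 6 Pvalb libraries between 6.30 and 23.4 CPM. The Sst libraries differed in this gene from Pvalb by -3.45 ± 0.44 on the log2 scale at 60 min (adjusted p = 6.72e-06) and by -1.87 ± 1.51 at 15 min (adjusted p = 0.729). The mean log2 CPM of the pericyte and smooth muscle markers in these groups was 0.835 and 0.535 in Camk2a and 3.24 and 2.99 in Pvalb, against 2.91 to 3.74 in the 4 lysate groups of these lines, and its part in Kcnmb1 was not tested. Kcnmb1 was itself higher in purified Pvalb RNA than in lysate in both sets.

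Kcne4, a single-pass partner of Kv channels, was at 0 CPM in all 7 purified Camk2a libraries of home cage mice. It was not absent from Camk2a RNA in the other conditions, with 15 min means of 0.893 CPM in box and 0.166 CPM after shock. Pvalb held 0.309, 0.325, 0.419 and 4.70 CPM at 15 min and 0 to 4.54 CPM with a median of 2.39 at 60 min. Against a floor of 3 counts over the Camk2a group, Pvalb was at least 121-fold higher at 15 min and at least 168-fold higher at 60 min. The 15 min mean rests on 1 library, and 1 Pvalb library at 60 min was at 0 as Camk2a was.

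Of the leak and ERG channels, Kcnk3 (TASK-1, an acid-sensitive leak channel) had 5.51, 5.69 and 6.73 CPM in Camk2a, 31.2, 36.7, 44.1 and 70.6 CPM in Pvalb, and 11.7, 16.1, 23.5 and 41.9 CPM in Sst at 15 min. At 60 min it had 11.9, 13.0, 13.0 and 21.3 CPM in Camk2a, 32.4 to 51.8 CPM with a median of 37.2 in Pvalb, and 12.3, 12.6, 27.5, 29.4 and 40.01 CPM in Sst. Pvalb lay wholly above Camk2a in both sets, by 2.75 ± 0.42 and 1.28 ± 0.31 (adjusted p = 0.00063 and 0.00218), and Sst overlapped Camk2a at 60 min. Kcnh2 (ERG1) had 2.32, 2.61 and 4.34 CPM in Camk2a against 19.5, 24.5, 50.0 and 77.6 CPM in Pvalb and 15.0, 17.0, 24.9 and 37.8 CPM in Sst at 15 min, and 6.61 to 14.2, 22.4 to 40.9 and 18.7 to 54.4 CPM at 60 min. Both interneuron lines lay above Camk2a without overlap, and neither difference was called in both sets relative to lysate (Pvalb 1.96 and 1.04, Sst 1.606 and 1.996).

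Kcnj10 encodes Kir4.1, the potassium-buffering rectifier of astrocytes. It had 16.0, 16.4 and 25.8 CPM in Camk2a and 41.2, 46.6, 52.5 and 63.1 CPM in Pvalb at 15 min, and 4.27 to 6.16 and 32.5 to 58.3 CPM at 60 min, again without overlap. Purified Pvalb libraries did not differ from their lysates in Kcnj10 by the test, with 0.03 ± 0.21 and -0.07 ± 0.12, while Camk2a libraries lay 1.82 ± 0.22 and 3.38 ± 0.24 below theirs. The mean log2 CPM of 7 astrocyte markers was 4.88 and 4.10 in Camk2a and 6.77 and 6.76 in Pvalb purified RNA, against 7.96 to 8.13 in their lysates. This marker mean was lower in Camk2a than in Pvalb, as Kcnj10 was. In Pvalb it lay below lysate, where Kcnj10 did not differ by the test. The part of astrocyte RNA in the line difference was not tested.

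Kcns2 (Kv9.2), a Kv2 modifier like Kcns3, went with Camk2a rather than with the interneurons. It had 47.7, 51.0 and 51.1 CPM in Camk2a, 9.51, 13.8, 22.2 and 30.7 CPM in Pvalb, and 11.3, 16.3, 19.3 and 22.7 CPM in Sst at 15 min. At 60 min it had 29.9, 31.2, 38.8 and 41.2 CPM in Camk2a, 10.5 to 24.4 CPM with a median of 18.0 in Pvalb, and 7.92 to 29.2 CPM in Sst. Camk2a was highest without overlap in both sets, by 1.18 to 1.56 on the log2 scale against Pvalb and 1.02 to 1.56 against Sst. Kcnh1 (EAG1) had 21.1, 29.3 and 31.3 CPM in Camk2a and 8.47 to 9.08 CPM in Pvalb at 15 min, and 21.4 to 32.2 and 9.95 to 24.1 CPM at 60 min, where the ranges overlapped. Its Pvalb difference was -1.80 ± 0.31 and -0.78 ± 0.24 (adjusted p = 0.00145 and 0.0117). By the rule that asks for a pass against both other lines in both sets, 5 members were held highest by Camk2a, Kcnip4, Kcns2, Kcnip3 and Kcnh1 among them. Since Sst against Pvalb called 0 members at 15 min, only Camk2a could meet this rule. The count of 5 is given without a share of all genes and is not read as particular to channels.

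**Figure D2:**
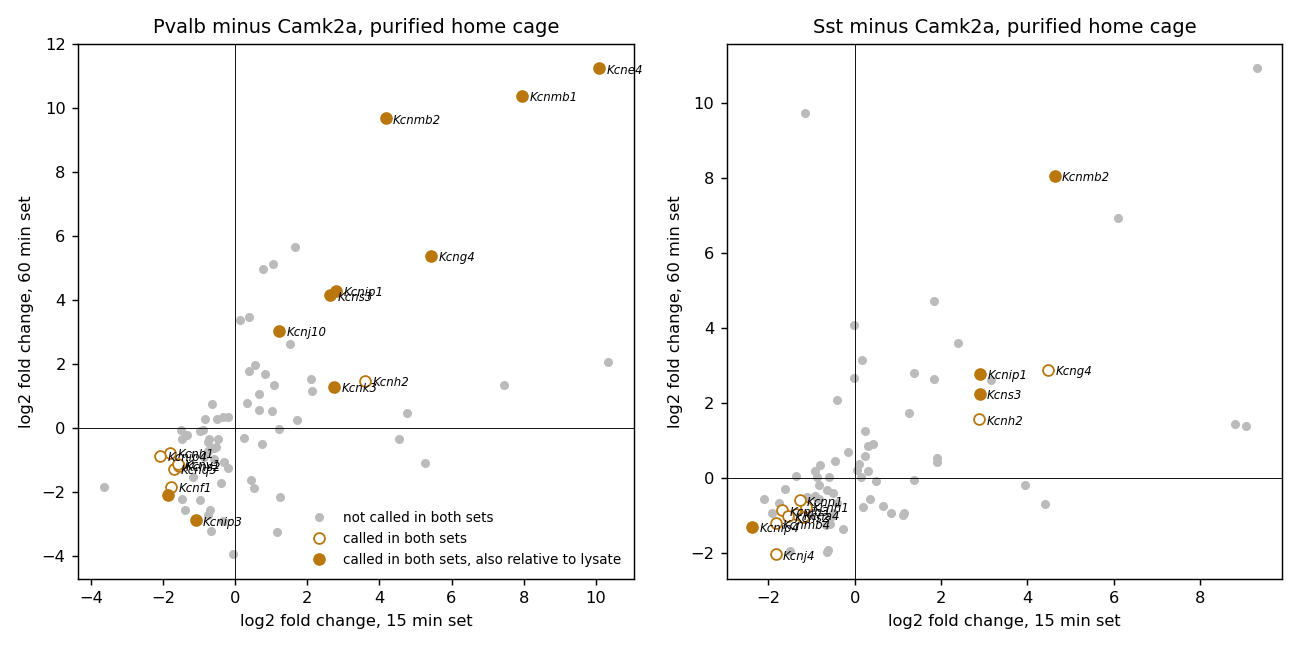
Log2 fold change of each member in purified home cage libraries in the 15 min set (x axis) and the 60 min set (y axis), for Pvalb minus Camk2a on the left and Sst minus Camk2a on the right. Circles in colour were called in both sets, most with their names, and are filled where they were also called relative to lysate: 8 of 9 higher and 2 of 8 lower members for Pvalb, 3 of 5 and 1 of 9 for Sst.

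Within a table, comparing purified RNA with lysate is free of table differences. In Pvalb neurons 13 members were over-represented (all genes 12.3%) and 11 under-represented (all genes 8.77%) in both sets, of 77 tested in both. At 15 min 13 were higher and 12 lower of 78, beside 22.4% of all genes, 12.9% higher and 9.45% lower. At 60 min 19 and 24 of 79 were called, beside 54.2% of all genes, 27.9% higher and 26.3% lower, so that share was near the background. Among the 13 were Kcna1, Kcna2, Kcnab1, Kcng4, Kcnip1, Kcnj12, Kcnj3, Kcnk3, Kcnma1, Kcnmb1, Kcnmb2 and Kcns3, which takes in 2 Kv1 pore subunits with a beta subunit and the BK pore with 2 of its beta subunits. Kcna1 had 440, 468, 506 and 518 CPM in purified Pvalb libraries and 180, 184 and 248 CPM in lysates at 15 min, and 643 to 749 against 174 to 240 CPM at 60 min. Kcna2 (Kv1.2) had 475, 516, 518 and 567 against 135, 154 and 179 CPM, and 516 to 678 against 122 to 177 CPM. Purified and lysate ranges were far apart for both genes, with log2 fold changes of 1.55 ± 0.17 and 2.04 ± 0.10 for Kcna1 and 2.04 ± 0.17 and 2.30 ± 0.12 for Kcna2. Between lines, Kcna1 was called higher in Pvalb than in Camk2a at 60 min, 1.97 ± 0.15, and at 15 min the difference was 0.54 ± 0.32 (adjusted p = 0.26).

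The largest over-representation in Pvalb was that of Kcnmb2, from 3.23, 5.64 and 6.98 CPM in lysate to 27.7 to 39.5 CPM purified at 15 min, 3.06 ± 0.33 on the log2 scale, and 3.72 ± 0.20 at 60 min. Kcns3 followed with 2.53 ± 0.24 and 3.32 ± 0.16, Kcng4 with 2.52 ± 0.48 and 2.74 ± 0.13, and Kcnip1 with 2.27 ± 0.21 and 2.92 ± 0.13, none with overlapping ranges. Among the 11 depleted members Kcnh3 (the ELK2 channel) went from 84.1, 94.4 and 115 CPM in lysate to 18.0, 18.7, 22.4 and 27.0 CPM at 15 min, and from 86.8 to 125 CPM to 7.46 to 15.1 CPM at 60 min, a log2 change of -1.89 ± 0.21 and -2.85 ± 0.16. Kcnip3 (-2.0002 ± 0.2988 and -2.46 ± 0.13), Kcng1, a Kv2 modifier (-2.56 ± 0.61 and -2.79 ± 0.37), and Kcnk4, the mechanosensitive channel TRAAK (-1.99 ± 0.56 and -2.41 ± 0.27), were depleted likewise. Their lysate and purified ranges were separate in both sets.

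In Camk2a neurons 7 members were over-represented in both sets, among them Kcnj11, Kcnj4, Kcnn1, Kcnq3 and Kcns1, and 8 were under-represented, of 74 tested in both. The shares of all genes were 10.3% and 8.57%, close to those of the members. At 15 min 15 members were higher and 8 lower of 75, beside 29.6% of all genes, 16.6% higher and 13% lower. At 60 min 13 and 11 of 78 were called, beside 28.7% of all genes, 13.8% higher and 14.9% lower. Kcnq3, a subunit of M-current channels, had 5.36, 6.23 and 8.95 CPM purified against 1.48, 1.61 and 4.71 CPM in lysate at 15 min, and 8.83, 10.2, 12.1 and 17.3 against 3.41, 4.39, 4.68 and 6.80 CPM at 60 min. Purified libraries were higher without overlap, by 1.74 ± 0.52 and 1.63 ± 0.35 on the log2 scale (adjusted p = 0.0368 and 0.00462). Kcnj4 (Kir2.3) rose from 10.1 to 11.95 CPM in lysate to 19.9 to 23.5 CPM at 15 min and from 18.9 to 32.4 CPM to 49.2 to 57.2 CPM at 60 min. Kcnj11 (Kir6.2, the pore of the ATP-sensitive channel) went from 14.3, 18.3 and 18.9 CPM to 25.8, 42.4 and 43.8 CPM, and from 19.9 to 29.4 CPM to 27.7 to 40.7 CPM with overlap.

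The members depleted from Camk2a RNA were Kcnj10, Kcnj16, Kcnk13, Kcnk6, Kcne1l, Kcne4, Kcnip1 and Kcnmb2. Kcnj16 (Kir5.1), which pairs with Kir4.1, had 51.9, 67.5 and 68.1 CPM in lysate and 3.20, 11.3 and 13.0 CPM purified at 15 min, and 12.3 to 22.9 against 0 to 0.643 CPM at 60 min. Kcnk6, the leak channel TWIK-2, had 1.51, 2.72 and 3.66 CPM in lysate against 0, 0 and 0.112 CPM, and 4.30 to 5.19 against 0 to 0.291 CPM. Lysates were higher without overlap for both.

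In Sst neurons 3 members, Kcnh2 and Kcnk3 among them, were over-represented in both sets, and Kcnn2, Kcns2, Kcnt2 and Kcnv1 under-represented, of 80 members tested, where the shares of all genes were 4.02% and 2.77%. At 15 min 11 were higher and 18 lower, beside 26.9% of all genes, 14.3% higher and 12.6% lower. At 60 min 4 and 10 were called, beside 20.9% of all genes, 9.11% higher and 11.8% lower. Without the 2 home cage libraries of low marker score the 60 min set gave 3 higher, Kcnip1, Kcnk3 and Kcnmb2, and 0 lower. These 2 counts are given without a share of all genes and are not read as particular to channels. Kcnk3 had 11.7, 16.1, 23.5 and 41.9 CPM purified against 4.68, 6.46, 7.21 and 7.88 CPM in lysate at 15 min, and 12.3, 12.6, 27.5, 29.4 and 40.01 against 2.76, 3.09, 5.11, 10.5 and 12.8 CPM at 60 min. The log2 fold changes were 2.20 ± 0.38 (adjusted p = 0.00254) and 1.89 ± 0.45 (adjusted p = 0.0202), with overlap of ranges at 60 min. Kcnt2, a sodium-activated channel, had 0.417, 1.10, 2.82 and 3.26 against 8.75, 10.5, 11.5 and 12.1 CPM, and 1.06 to 4.02 against 5.16 to 16.2 CPM, a log2 change of -2.06 ± 0.59 and -2.26 ± 0.51. Kcnn2 (SK2) had 10.4, 14.6, 20.6 and 29.2 against 50.9, 51.8, 53.4 and 87.3 CPM, and 20.7 to 37.3 against 55.4 to 101 CPM, also without overlap.

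**Figure D3:**
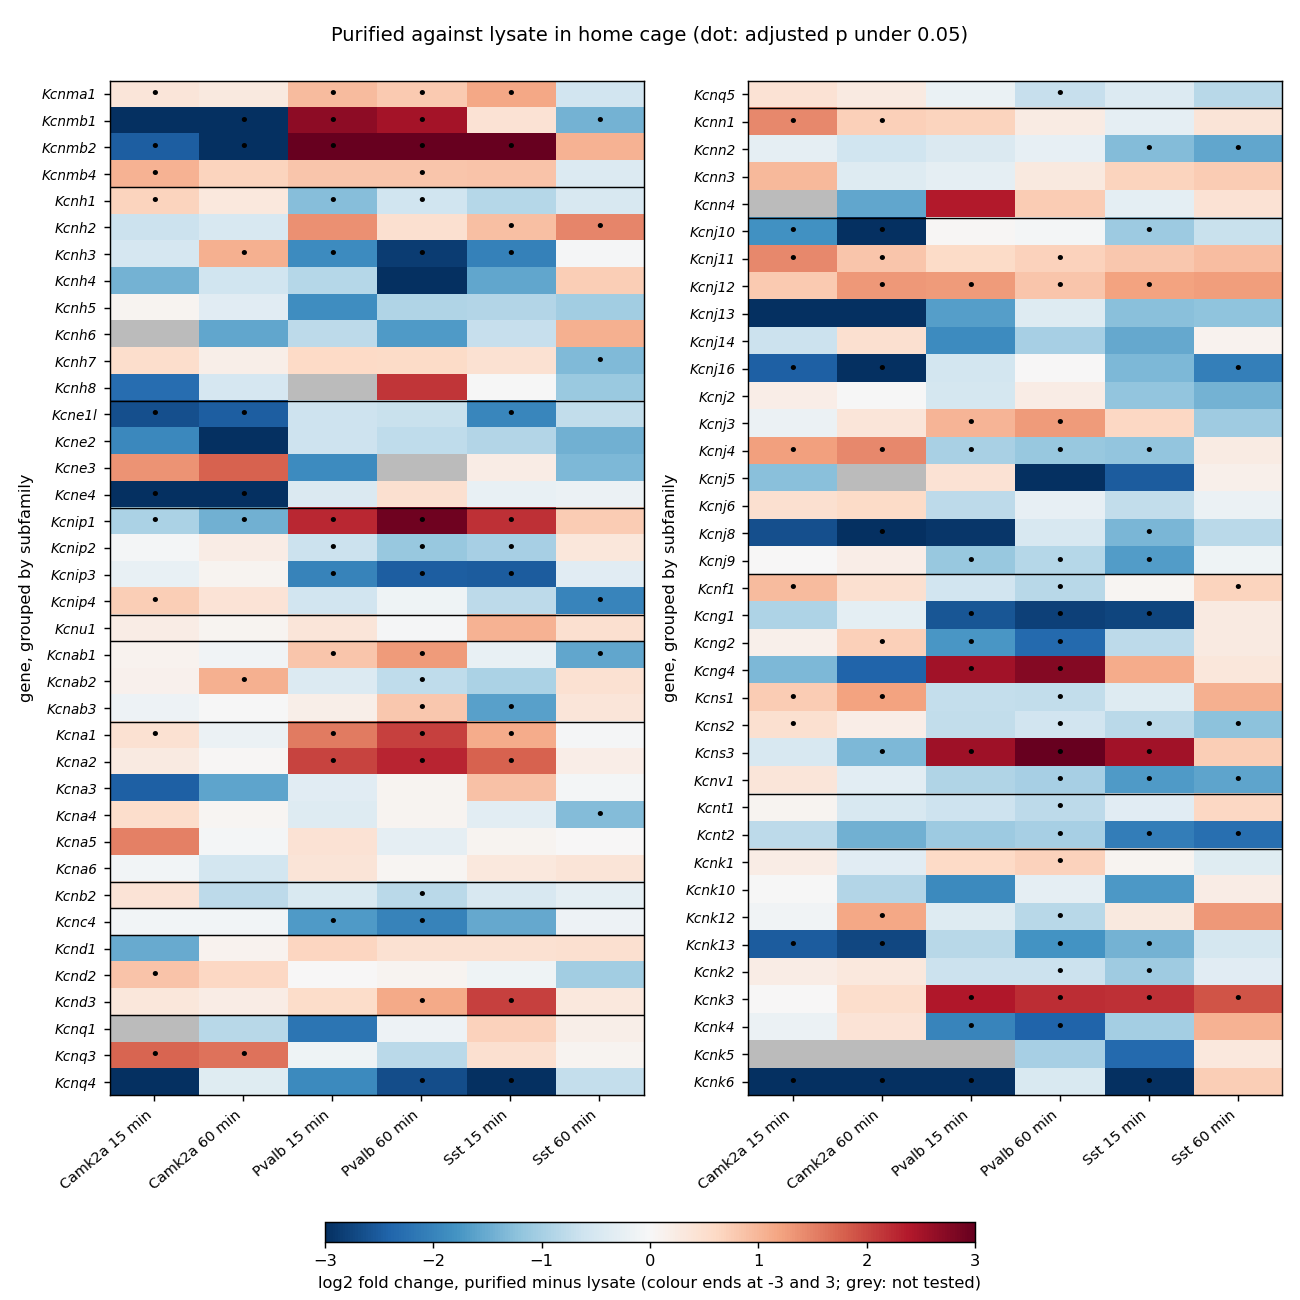
Log2 fold change of purified over lysate RNA in home cage libraries for channel genes (rows, grouped by subfamily) in the 6 tables (columns); red is higher in purified RNA, blue lower, grey not tested, and a dot marks an adjusted p under 0.05. Kcnip1, Kcnmb1, Kcnmb2, Kcng4, Kcns3, Kcna1 and Kcna2 are red with dots in both Pvalb columns, and Kcnj10, Kcnj16, Kcnk13 and Kcne1l are blue with dots in both Camk2a columns.

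A list of 27 partner genes, which encode proteins that bind or traffic these channels without a Kcn symbol, was read the same way. In purified Pvalb RNA 9 of 25 tested were higher than lysate and 3 lower at 15 min, and 16 and 7 of 26 at 60 min. In Camk2a it was 10 and 1 of 25, and 6 and 4 of 26, and in Sst 8 and 5, and 1 and 3 of 26. These counts stand beside the shares of all genes given above for the same comparisons.

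Responses to the box and the shock were tested in purified RNA of each line and set. In Camk2a neurons at 60 min 4 members rose and 1 fell after shock against home cage, of 74 tested, where 2.3% of all genes were called, 1.66% higher and 0.641% lower. Kcnd2 (Kv4.2), the pore of the dendritic A-type current, had 120, 156, 165 and 183 CPM in home cage and 218, 245, 264, 265 and 381 CPM after shock. Its partner Kcnip4 had 113, 144, 149 and 171 CPM and 217, 228, 232, 240 and 355 CPM. Shock libraries lay above home cage without overlap for both, by 0.88 ± 0.20 in each (edgeR adjusted p = 0.0475 for both). Kcnn2 had 26.4, 29.1, 31.3 and 35.6 CPM in home cage and 40.2, 43.8, 45.4, 65.2 and 74.7 CPM after shock, 0.87 ± 0.21 (adjusted p = 0.0493), again without overlap. Kcnab1 (Kv-beta1) had 132, 169, 216 and 233 CPM and 217, 322, 358, 368 and 425 CPM, 0.91 ± 0.21, with 1 shock library inside the home cage range. Kcnip3 fell from 82.8, 101, 107 and 111 CPM to 31.3, 54.2, 54.9, 55.5 and 65.9 CPM, by 0.89 ± 0.21 (adjusted p = 0.0475). The 3 box libraries lay mostly within the home cage ranges, for Kcnd2 at 127, 161 and 209 CPM and for Kcnip3 at 65.9, 92.8 and 111 CPM.

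These calls stood close to the threshold. With offsets for GC content and length only Kcnn2 was called, at 1.19 ± 0.22 (adjusted p = 0.0487), beside 0.099% of all genes. Kcnd2, Kcnip4 and Kcnab1 were then at 0.26 to 0.51 and Kcnip3 at -0.58. With sex as a covariate edgeR called 0 members (adjusted p from 0.181 to 0.192), while the 4 increases were 0.74 to 0.86 and Kcnip3 was at -0.78. With the own-class marker score as a covariate it also called 0 (adjusted p = 0.0669 for all 5), at 0.87 to 0.91 and -0.88, about as large as without it. The count fell to 0 without home cage library 1, 2, 3 or 4, without box library 1, or without shock library 1, 4 or 5. The GC slope of a library, which says how its log2 CPM departs from the other libraries as GC content goes up, ran from 0.13 to 0.40 in home cage and from -0.62 to 0.01 after shock. Of the home cage mice 3 of 4 were male and of the shock mice 1 of 5.

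In Pvalb neurons at 60 min 19 members were called higher and 8 lower after shock than in home cage, of 78. All genes were called at 35%, 19.7% higher and 15.3% lower, so the members' share was near the background and says nothing particular about channels. Kcnab2 had 165 to 235 CPM with a median of 210 in home cage and 277 to 531 CPM with a median of 442 after shock, 1.002 ± 0.173 (adjusted p = 0.000636). Kcng2, a Kv2 modifier, had 6.98 to 14.1 and 12.9 to 35.5 CPM (medians 8.89 and 31.4), Kcnk3 32.4 to 51.8 and 48.9 to 113 CPM (medians 37.2 and 84.6), and Kcnh3 7.46 to 15.1 and 12.3 to 42.7 CPM (medians 11.3 and 36.4). Shock libraries were higher throughout for Kcnab2, and the ranges of the other 3 overlapped at their edges. The 4 box libraries had 216, 261, 284 and 350 CPM of Kcnab2, 1 within the home cage range, 1 between the ranges and 2 within the shock range, and in edgeR neither box against home cage nor shock against box called a member (0% of all genes), with 10 and 12 members at an unadjusted p under 0.05 and 1 by DESeq2 for shock against box.

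Direction and GC content went together here. The 19 higher members had a GC content of 53.9% to 69.4% with a median of 57.4%, and the 8 lower ones 40.1% to 54.4% with a median of 45.7%. The GC slopes of the libraries ran from -0.54 to -0.30 in home cage and from -0.11 to 0.79 after shock. With offsets for GC content and length 0 members were called higher and 4 lower: Kcna4, Kcnn2, Kcna3 and Kcnn1. All genes were called at 10.2% with the offsets, so this count says nothing particular about channels. Kcnn1 had 0.22 ± 0.18 without the offsets and -0.56 ± 0.12 with them, so its direction depended on them.

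Kcna4 (Kv1.4), the fast-inactivating Kv1 subunit, was called lower in Pvalb under each of the 7 other settings and 16 omissions of 1 library that were run. It had 10.5 to 36.9 CPM with a median of 15.3 in home cage, 8.02, 8.69, 10.9 and 12.3 CPM in box, and 3.73 to 11.95 CPM with a median of 7.03 after shock. Home cage libraries were higher, with overlap at the edge. The log2 change was -1.33 ± 0.32 (adjusted p = 0.00399), and -0.91 ± 0.28 with the GC offsets (adjusted p = 0.0475). Kcnn2 had 19.0 to 37.9 CPM with a median of 34.8 in home cage and 15.0 to 30.2 CPM with a median of 19.8 after shock, with overlap. Its change was -0.54 ± 0.20 (adjusted p = 0.0434) and -0.95 ± 0.27 with the offsets (adjusted p = 0.0306), and it was called in 4 of 7 other settings and 4 of 16 omissions.

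**Figure D4:**
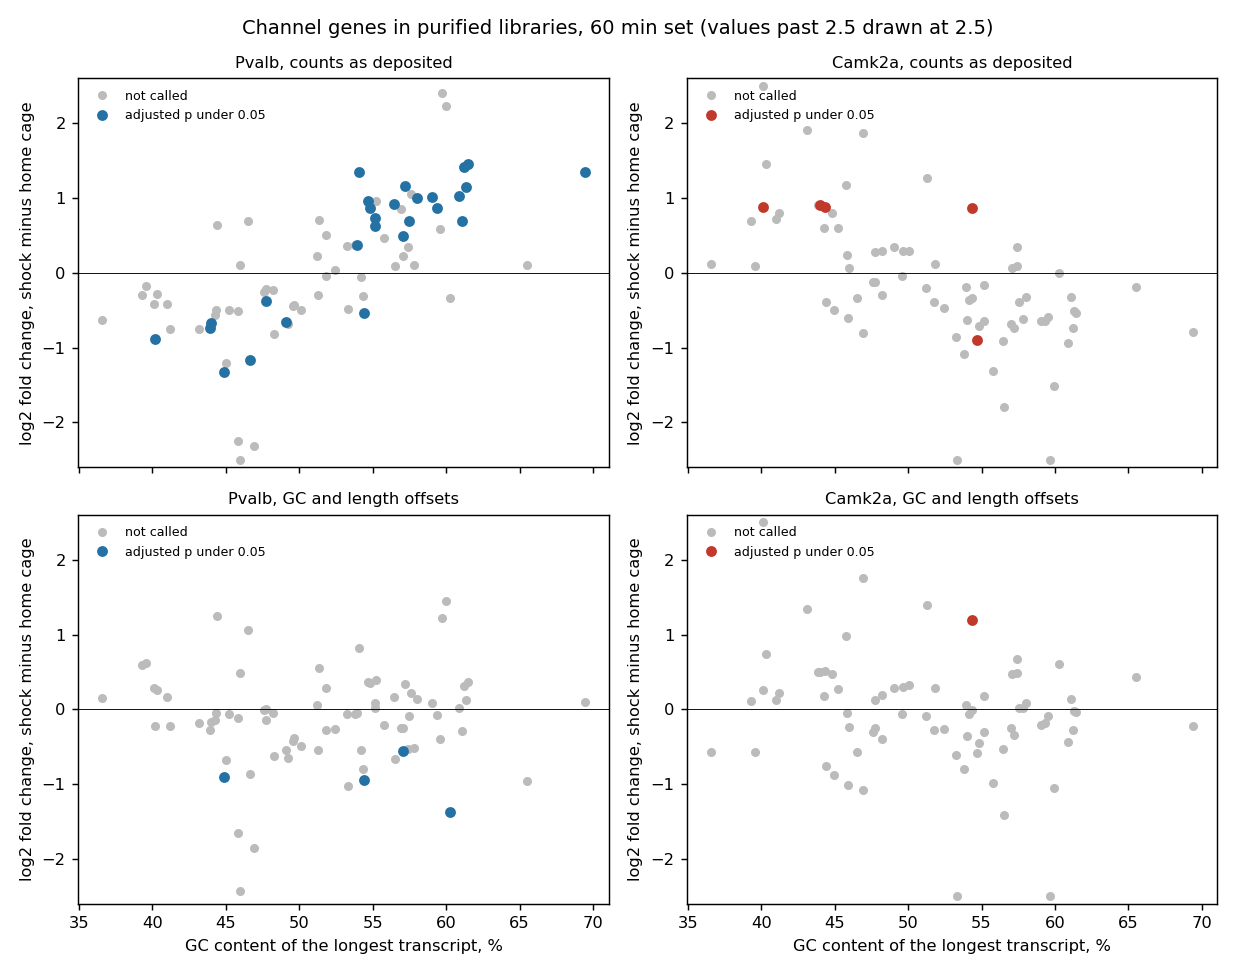
Log2 fold change of channel genes after shock against home cage in the 60 min set, plotted against GC content in percent, for Pvalb (left) and Camk2a (right), on counts as deposited (top) and with GC and length offsets (bottom); coloured points passed an adjusted p of 0.05. Changes in Pvalb climb with GC content and those in Camk2a decline with it in the top row. With the offsets 4 members were called lower in Pvalb (all genes 10.2%) and Kcnn2 higher in Camk2a (all genes 0.099%).

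Whether the shock response differed between the 2 lines was tested as an interaction at 60 min. Of 80 members 26 had a higher and 12 a lower response in Pvalb than in Camk2a, beside 37.6% of all genes, 20.8% higher and 16.8% lower. With the GC offsets 5 and 3 were called, counts given without a share of all genes and not read as particular to channels. Kcnn2 differed by -1.40 ± 0.37 (adjusted p = 0.00359) and by -2.09 ± 0.47 with the offsets (adjusted p = 0.00452). Kcna4 differed by -2.11 ± 0.51 (adjusted p = 0.0016) and by -1.46 ± 0.44 with the offsets (adjusted p = 0.0262). For both genes the interaction was called in each of 5 other settings and 21 omissions of 1 library. In Camk2a itself the response of Kcna4 was 0.80 ± 0.31 (adjusted p = 0.126), from 16.7 to 27.1 CPM in home cage to 18.8 to 54.2 CPM after shock, with overlap. At 15 min the interaction called 0 of 79 members (all genes 0.00609%), with 5 at an unadjusted p under 0.05 and 2 by DESeq2.

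In Sst neurons the shock contrasts rest on libraries that stand apart. At 60 min 2 members were higher and 1 lower of 80 against home cage, beside 4.49% of all genes, 2.34% higher and 2.15% lower. Against box 5 were higher and 2 lower, beside 8.18% of all genes, 3.62% higher and 4.56% lower. Kcnip1 had 50.4, 70.8, 118, 138 and 142 CPM in home cage, 68.1, 117, 130 and 134 CPM in box, and 29.8, 31.7, 34.9 and 40.1 CPM after shock. The shock libraries were lowest without overlap, -1.71 ± 0.33 against home cage (adjusted p = 0.0165) and -1.87 ± 0.34 against box (adjusted p = 0.0121), and lay within or below the range of the lysates of shocked mice, 34.0 to 56.2 CPM. Kcns3 had 22.3, 32.4, 66.7 and 73.9 CPM in box and 11.1, 11.6, 12.3 and 18.6 CPM after shock, -2.01 ± 0.55 (adjusted p = 0.0413), and its lysates held 16.6 to 20.3 CPM. Kcnj10 was higher after shock, at 63.4, 66.0, 77.4 and 79.7 CPM against 23.8, 35.1, 35.5 and 36.0 CPM in box, 1.01 ± 0.23 (adjusted p = 0.0215). The leak channel Kcnk2 (TREK-1) had 20.7 to 38.1 CPM in home cage, 26.2 to 35.2 CPM in box and 49.2 to 90.5 CPM after shock, without overlap, 1.001 ± 0.207 and 0.96 ± 0.22. Kcnh3 rose against home cage by 0.99 ± 0.26, and Kcnip2, Kcnj4 and Kcnk10 against box by 0.67 ± 0.19, 0.99 ± 0.28 and 1.06 ± 0.31.

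The own-class marker score of these libraries moved with the same values. Over lysate it was -1.18 to -0.56 in the 4 shock libraries, 1.66 to 4.21 in box and -0.16 to 3.79 in home cage. All shock libraries had a low score, so no contrast without low-score libraries could be made, and score and shock cannot be told apart at 60 min. With the score as a covariate the change of Kcns3 against box was 0.72, with the opposite sign.

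**Figure D5:**
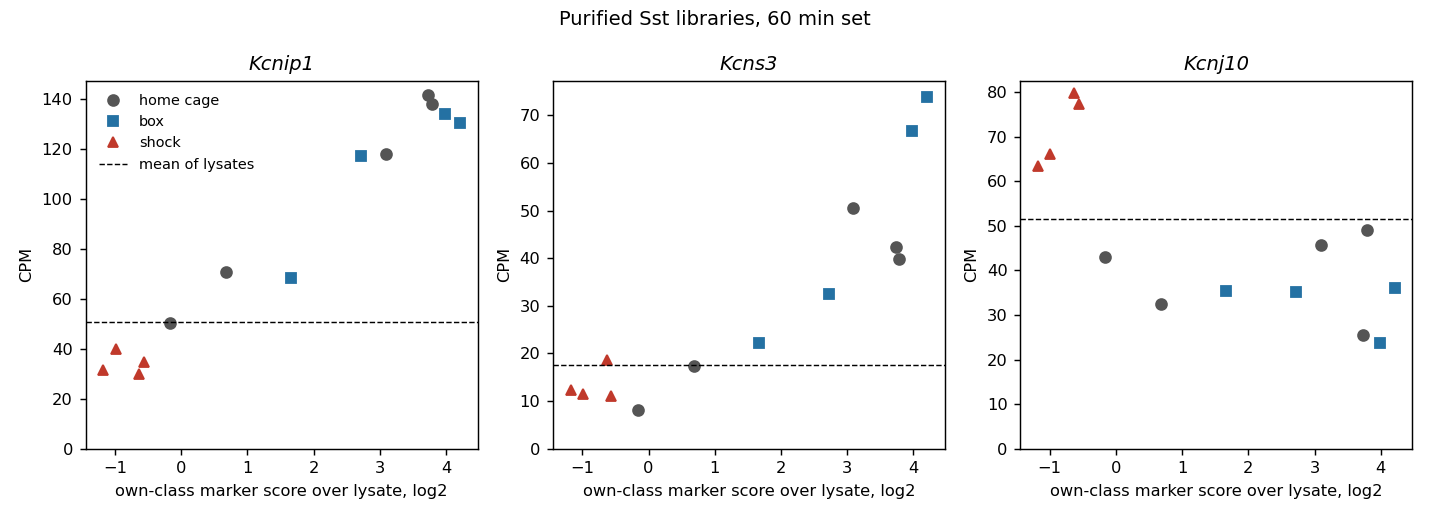
CPM of Kcnip1, Kcns3 and Kcnj10 in each purified Sst library of the 60 min set (y axis) against its own-class marker score over lysate in log2 units (x axis); grey circles are home cage, blue squares box, red triangles shock, and the dashed line is the mean of the lysates. The 4 shock libraries sit at the lowest scores, with Kcnip1 at 29.8 to 40.1 CPM and Kcnj10 at 63.4 to 79.7 CPM.

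At 15 min Sst neurons gave 1 member, Kcnk6, of 80 for shock against home cage (all genes 1.21%, 1.11% higher). It had 0, 0.0505, 0.106 and 0.304 CPM in home cage and 0.431, 11.9, 15.7, 16.5 and 17.2 CPM after shock, 6.51 ± 1.43 (adjusted p = 0.0437). The shock library at 0.431 CPM had a score of 4.22 over lysate, within the range of home cage, and the other 4 had scores of -1.74 to 1.38. Of the box libraries the one with the lowest score, 0.106, had 1.74 CPM, and those with scores of 4.41 and 4.03 had 0.747 and 0.0751 CPM. Without the libraries of low score, with GC offsets or with the score as a covariate edgeR called 0 members.

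In the other purified contrasts edgeR called 0 members: all 3 in Camk2a at 15 min, all 3 in Pvalb at 15 min, box against home cage and shock against box in Camk2a at 60 min, box against home cage and shock against box in Sst at 15 min, and box against home cage in Sst at 60 min. In each of these 0% of all genes were called. At an unadjusted p under 0.05 the counts ran from 1 to 15 members, the most for shock against home cage in Pvalb at 15 min, and DESeq2 called 0 to 2. Counts at an unadjusted p are given throughout without the share of all genes and are not read as a response of the channels. In lysates, where the lines were fitted together, 0 members were called in all 6 contrasts by edgeR, with 0 to 7 at an unadjusted p under 0.05 and 0 by DESeq2, and at most 0.128% of all genes were called.

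The response in Camk2a neurons was also compared between sets. Of 78 members 0 had a higher and 6 a lower shock response at 60 than at 15 min (all genes 5.71%, 4.63% lower): Kcnh3, Kcnip3, Kcnab3, Kcnk4, Kcnab2 and Kcnj9. Kcnh3 differed most, by -2.29 ± 0.46 (adjusted p = 0.0182), and its own response was 1.47 ± 0.39 at 15 min and -0.74 ± 0.24 at 60 min, called in neither set. The 6 genes had a GC content of 54.0% to 61.2%, and with GC offsets 0 were called. In Pvalb neurons edgeR called 0 of 80 (all genes 0%), with 3 at an unadjusted p under 0.05 and 1 by DESeq2.

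Among the partner genes, shock against home cage at 60 min called 1 higher, Cntnap2 (Caspr2, which clusters Kv1 channels), of 26 in Camk2a, at 0.79 ± 0.18, where 2.3% of all genes were called. In Pvalb it called 5 higher and 9 lower of 26, where 35% of all genes were called. In Pvalb, Calm3 (calmodulin) was higher by 0.73 ± 0.14 and Abcc8 (SUR1, partner of Kcnj11) by 1.35 ± 0.27, and Adam22 was lower by 0.79 ± 0.19. With GC and length offsets none of these 4 genes was called, Cntnap2 at 0.42 ± 0.16 (adjusted p = 0.279) and Calm3 at -0.12 ± 0.11 (adjusted p = 0.558) among them. The offsets left 0 calls in Camk2a, and in Pvalb Dlg4 (PSD-95) higher and Amigo1 lower, where 10.2% of all genes were called.

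In Sst, Lingo1 was higher at 15 min after shock than in home cage, by 2.04 ± 0.41 (adjusted p = 0.0423). Its means were 35.8 CPM in home cage and 155 CPM after shock, against 118 CPM in home cage lysate, and 3 of the 5 shock libraries had a low own-class marker score. Without the libraries of low score the difference was 1.77 ± 0.56 and was not called (adjusted p = 0.602). Dpp10, an auxiliary subunit of Kv4, was lower after shock at 60 min, at -2.75 ± 0.60 against box and -2.62 ± 0.58 against home cage (edgeR adjusted p = 0.0271 for the latter). Its means were 12.4 CPM after shock, 74.8 CPM in box and 70.9 CPM in home cage, against 44.2 CPM in home cage lysate. With GC and length offsets 8 of 26 partner genes were called lower against home cage and 9 against box, beside 12.9% and 17.2% of all genes. All 4 shock libraries there had a low score, so score and shock cannot be told apart.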

How the data were processed

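The deposited values are raw counts per gene and library, whole numbers in 6 tables, 1 for each line and time set. The names GRCm38, DESeq2, featureCounts and STAR 2.7.7a stand in the submitters' processing notes without a stated role. Which annotation the authors counted on was not given in the sources used here. The Nextera XT kit named in the labels' protocols keeps no strand, so overlapping genes share reads. Columns were matched to labels by name: 151 were used and 0 left unused, 3 of them could be placed in a group only, and 2 labelled samples were not analysed here. The smallest reduced chi-square between replicates of a group was 20.6, so no group held the same library under 2 names. Libraries of different groups were not compared in this way. The members and lists were chosen with earlier results of these data known. Some matching genes, left out by the selection rule or otherwise, are not reported here by name, though the counts of members include those that the rule kept.

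The main test was edgeR 4.0.16 (filterByExpr, TMM, quasi-likelihood, robust) in R 4.3.3, on all genes of a table, or of the tables compared, with Benjamini-Hochberg adjustment over all genes tested and a threshold of 0.05. Fold changes are log2 with their SE. Lines were compared over purified home cage libraries of a set, purified RNA with lysate within a table, and conditions within purified libraries of a table or, for lysates, over the 3 lines. CPM scales a count to the library total, and CPM per kilobase divides it by GENCODE M21 exon length. The own-class score is the mean log2(CPM + 0.5) of the line's own marker lists minus that of the other lists. Sex was called from Y-linked genes at over 5 CPM. Alternatives were DESeq2 1.42.0, DESeq2 size factors, no filter, the replicate number as a block, offsets for GC content and length, sex or score as covariate, line differences relative to lysate, omission of low-score Sst libraries, and omission of each library; the line differences relative to lysate, the omission of low-score libraries and the offsets in the tests of response differences were chosen after seeing the data. Scripts were tested on simulated data. Of simulated 2-fold changes, 27.4% were recovered between Pvalb and Camk2a and 22.4% for purified against lysate in Camk2a, both at 60 min. For shock against home cage at 60 min it was 37.2% in Camk2a, 40.4% in Pvalb and 62.6% in lysates. For response differences it was 5.1% over time in Camk2a and 6.06% between lines at 60 min, and 49.5% and 46% for 4-fold changes. A count of 0 therefore does not exclude 2-fold changes.

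Members were named by these rules: for lines, up to 5 that pass against both other lines in both sets; for purified against lysate, up to 4 per direction by fold; for conditions, up to 6 per direction by p. The 9 members higher and 8 lower in Pvalb than in Camk2a, and Kcna1, Kcna2, Kcnn2, Kcnn1, Kcnd1 and Kcnj3, were also given values after those were seen.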

Additional observations from a re-analysis of the deposited data

Results flagged for a closer look

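Among the members with values per library, 127 combinations of a gene and a group of 4 to 6 samples were tested for a single library far from the rest. In all, 13 cases were found, where chance gives about 1 in 20 for independent values. Some cases share a library and some rest on values near 0 CPM, so the count is not read as an excess over chance. In purified Camk2a RNA after shock at 60 min, library 4 was highest for both Kcnd2 (381 CPM) and Kcnip4 (355 CPM). In home cage samples of that set, Kcnj16 was low in lysate 1 (12.3 CPM) and in purified library 2 (0 CPM), and Kcnmb2 was counted in purified library 3 only (0.182 CPM). In purified Pvalb RNA, Kcna4 reached 36.9 CPM in home cage library 3 at 60 min, Kcnmb1 15.9 CPM in shock library 2 at 60 min, and Kcnip4 was low in home cage library 1 at 15 min (61.0 CPM). In purified Sst RNA at 60 min, Kcnj10 was low in box library 4 (23.8 CPM), Kcnj4 was high in box library 1 (20.3 CPM) and Kcns3 was high in shock library 2 (18.6 CPM). Sst home cage lysate 4 at 15 min was highest for Kcnn2 (87.3 CPM) and Kcnv1 (113 CPM).

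The shock response differed between Pvalb and Camk2a neurons at 60 min in 38 members by the interaction test, where 37.6% of all genes were called. The response differed between 60 and 15 min in Camk2a neurons in 6 members, where 5.71% of all genes were called. With GC and length offsets these counts were 8 and 0, given without the shares of all genes.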

How the results depend on the processing

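Counts below are members called by an adjusted p under 0.05, and the cause of a change was not tested. Where no share of all genes stands beside a count, it is not read as a result about channels. DESeq2 called 3 members for Sst against Pvalb at 15 min (edgeR 0), 1 for shock against home cage in Camk2a at 15 min (0), 13 at 60 min (5), 1 for shock against box in Camk2a at 60 min (0), 1 each in Pvalb at 15 and 60 min (0), 14 for shock against home cage in Sst at 15 min (1), 9 at 60 min (3), 2 for shock against box in Sst at 15 min (0), 24 for purified against lysate in Sst at 60 min (14), 1 for the time difference in Pvalb (0) and 2 for the line difference of the response at 15 min (0). GC and length offsets gave 1 in Camk2a at 60 min (all genes 0.099%) and 4 in Pvalb at 60 min against 27 (all genes 10.2%). In Sst they gave 0 at 15 min, and 8 and 12 at 60 min against home cage and box (3 and 7). There 12.9% and 17.2% of all genes were called, so these 2 counts say nothing particular about channels. The offsets gave 0 for the time difference in Camk2a against 6, and 8 for the line difference of the response at 60 min against 38. Sex as a covariate gave 0 in Camk2a at 60 min, 2 in Sst at 15 min and 4 in Sst against box at 60 min; the score gave 0, 0 and 3 there, and 1 in Pvalb at 15 min. With the score the sign of Kcns3 in Sst against box reversed, to 0.72. Without a filter Sst against box at 60 min gave 4. Relative to lysate, Sst against Camk2a at 60 min gave 14 against 40. Without low-score libraries Sst gave 0 at 15 min and 3 for purified against lysate at 60 min.

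Same-numbered libraries deviated together in part only. Over conditions of purified RNA the correlations ran from -0.443 to 0.308, between lines from -0.0926 to 0.0563, and between purified and lysate libraries from -0.336 to 0.485. With 3 or more pairs no table had every pair over 0.1; in Pvalb at 15 min both home cage pairs of purified and lysate were, at 0.133 and 0.142. The labels do not say that a number is 1 animal, so the main fits have no block. A fit with a replicate block called 3 members in Camk2a at 60 min, 0 in Sst at 15 min, 0 and 4 in Sst at 60 min against home cage and box, and 0 for the time difference in Camk2a.

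Leaving out 1 library at a time, counts ran from 0 to 12 in Camk2a at 60 min, 18 to 38 in Pvalb at 60 min and 0 to 4 there against box, 0 to 6 in Sst at 15 min and 0 to 1 there against box, and 0 to 3 and 1 to 5 in Sst at 60 min. For purified against lysate they ran from 13 to 21 and 17 to 26 in Camk2a at 15 and 60 min, 17 to 27 and 39 to 45 in Pvalb, and 20 to 31 and 2 to 22 in Sst. For lines they ran from 17 to 28, 16 to 23 and 0 to 2 at 15 min and 44 to 48, 29 to 40 and 28 to 36 at 60 min, in the order Pvalb against Camk2a, Sst against Camk2a, Sst against Pvalb. They ran from 31 to 41 for the line difference and 0 to 10 for the time difference of the response. Of 824 values of named genes under other settings 696 kept direction and side of the threshold, 120 lost the call, 7 gained it and 1 reversed; of 1584 omissions 1320 kept both.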
